A study of Danio rerio with 30 samples.

Results

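Enzymes that supply sugar donors for protein glycosylation were followed in zebrafish embryos from which transcription factors of the unfolded protein response had been removed or to which they had been added. The genes were pmm2, mpi, gmppb, gmppaa, gmppab, dpm1, gfpt1, uap1 and uap1l1. They were taken by name from the feature table of the deposited count matrices, which held all 9 of them among 26847 gene symbols. Whole embryos, about 30 pooled per library, were read by single-cell RNA sequencing in droplets, in which each captured mRNA molecule is counted once through its unique molecular identifier (UMI).

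At 12 hours post fertilization (hpf), 16 libraries from the TL/AB strain were read. Crispants, embryos injected with Cas9 and guide RNAs, were made for tyr (the pigment gene tyrosinase, used as the injected control, 2 libraries). Uninjected wild type embryos also had 2 libraries, as did an uninjected homozygous creb3l1 mutant line. Single libraries came from crispants of atf6, xbp1, creb3l1, creb3l2 and of xbp1 with atf6. Further embryos were made by injecting guide RNAs into the creb3l1 mutant line and so lacked creb3l1 as well. They were the creb3l2, the atf6 with creb3l2 and the xbp1 with creb3l2 combinations, with 1 library each. The quadruple embryos, which lacked xbp1, atf6, creb3l2 and creb3l1, had 2 libraries. In all, xbp1 was lost in 5 libraries, atf6 in 5, creb3l1 in 8 and creb3l2 in 6. A crispant is a mosaic of edited cells and not a stable mutant. At 8 hpf, 6 libraries of 1 per group came from embryos injected with mRNA. Crispants of xbp1 received 40 pg of mCherry, atf6-N, creb3l1-N or creb3l2-N, where N marks the activated form. Embryos without guide RNAs received 40 pg of full-length creb3l2 or 125 pg of mCherry, so these last doses differ.

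Secreted and membrane proteins receive N-linked sugar chains in the endoplasmic reticulum, and the chains are built from activated sugars. In the mannose branch, mpi interconverts fructose-6-phosphate and mannose-6-phosphate, pmm2 turns the latter into mannose-1-phosphate, and gmppb makes GDP-mannose from it. The gmppaa and gmppab genes encode zebrafish versions of GMPPA, a regulatory partner of GMPPB in human cells, and dpm1 loads mannose from GDP-mannose onto the lipid dolichol phosphate. In the hexosamine branch, gfpt1 carries out the rate-limiting first step and uap1 makes UDP-N-acetylglucosamine, which also opens the lipid-linked chain. The uap1l1 gene is a paralogue of uap1. These roles come mostly from yeast and mammals. Of the removed factors, xbp1 and atf6 are textbook effectors of the unfolded protein response, and creb3l1 and creb3l2 are related membrane-bound factors known in secretory and matrix-producing cells.

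Total UMIs per library ran from 37677042 to 120722910 at 12 hpf and from 40560649 to 100654147 at 8 hpf. Cells were classed by clusters that were computed without the 9 genes. The hatching gland-like class at 12 hpf was led by he1.1, he1.2 and ctslb and held 31 to 144 cells per library. The notochord-like class was 2 clusters with noto, tbxta, ntd5 and twist2, or ntd5, twist2, emilin3a and loxl5b, among their leading genes, and held 58 to 233 cells per library. Levels are given as CPM, the UMIs of a gene scaled to the total UMIs of that class in that library. Summed hatching gland markers stood at 30988 to 42311 CPM in hatching gland-like cells with xbp1 and at 33133 to 47337 CPM without it. Summed notochord markers stood at 5453 to 12956 CPM in notochord-like cells with creb3l2 and at 8023 to 12488 CPM without it. In both classes these ranges overlapped. Libraries shared at most 13 cell barcodes in a pair. The labels do not say whether libraries of a group came from separate clutches, so the tests measure the spread between libraries only.

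In the 4 control libraries (tyr and wild type), 8 of the 9 genes were higher in hatching gland-like cells than in all remaining cells, and the same count was higher in notochord-like cells. Across all genes tested, 29.0% were called higher in the first comparison and 25.2% in the second (edgeR quasi-likelihood test, adjusted p below 0.05, library as a block). In hatching gland-like cells pmm2 stood at 393 and 284 CPM in the tyr libraries and at 179 and 227 CPM in wild type. In notochord-like cells it stood at 315, 223, 127 and 107 CPM in the same order. In the remaining cells it stood at 33.6, 36.6, 17.1 and 26.4 CPM, below both classes in every library. The log2 difference of pmm2 from the remaining cells was 3.63 ± 0.16 (SE) in hatching gland-like cells (adjusted p = 5.8e-09) and 2.58 ± 0.16 in notochord-like cells (adjusted p = 1.5e-07).

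The other mannose-branch genes were also higher in both classes, except gmppaa. For gmppab the log2 differences from the remaining cells were 3.14 ± 0.20 (hatching gland-like) and 2.62 ± 0.20 (notochord-like), and for gmppb they were 2.65 ± 0.13 and 1.76 ± 0.13. For dpm1 they were 2.50 ± 0.11 and 1.58 ± 0.11, and for mpi 1.27 ± 0.34 (adjusted p = 0.0073) and 1.67 ± 0.31 (adjusted p = 0.001). For gmppaa neither value passed the test, at 0.28 ± 0.22 (adjusted p = 0.29) and 0.16 ± 0.22 (adjusted p = 0.57). The near copies gmppaa and gmppab thus had different patterns over cells, although how reads that match both were counted is not given in the sources used here.

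The 3 hexosamine-branch genes were higher in both classes as well. For gfpt1 the log2 difference from the remaining cells was 3.54 ± 0.25 (notochord-like) and 2.86 ± 0.28 (hatching gland-like). For uap1 it was 2.76 ± 0.16 and 2.61 ± 0.17, and for uap1l1 1.99 ± 0.23 and 1.21 ± 0.27 (adjusted p = 0.0024). The last of these missed the threshold when tyr 2 was left out (adjusted p = 0.05). Set directly against notochord-like cells, hatching gland-like cells were higher in pmm2 (1.05 ± 0.15, adjusted p = 0.00014), dpm1 (0.92 ± 0.11), gmppb (0.89 ± 0.13) and gmppab (0.52 ± 0.20, adjusted p = 0.048), and lower in uap1l1 (-0.77 ± 0.29, adjusted p = 0.04). Of all genes, 54.9% were called in that comparison in either direction. The calls of some members depended on the scaling. With library totals in place of TMM normalisation, gmppab stood at 0.01 (adjusted p = 0.96), while gfpt1 (-1.19, adjusted p = 0.0033) and uap1 (-0.65, adjusted p = 0.0077) were called lower, so that 3 members were higher and 3 lower. That scaling moved the median of all genes by -0.50 and the calls from 3097 higher and 3089 lower to 1859 and 5375. Against the remaining cells it moved the median by -0.40 in hatching gland-like cells (2246 higher and 5766 lower, against 3270 and 3811) and by 0.10 in notochord-like cells, and 8 members stayed higher in each. The calls of gmppab (without tyr 2 or wild type 2, adjusted p = 0.27 and 0.19) and of uap1l1 (without tyr 2, wild type 1 or wild type 2, adjusted p = 0.19, 0.099 and 0.12) rested on single libraries.

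**Figure D1:**
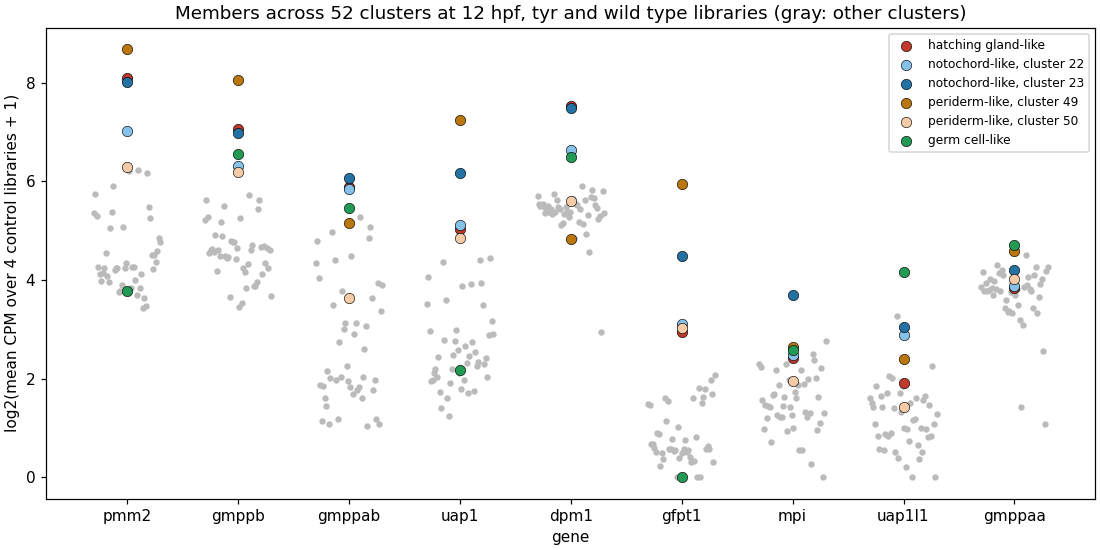
Mean level of each gene over the 4 control libraries in each of 52 clusters at 12 hpf, as log2(CPM + 1), with 1 point per cluster and the secreting and germ cell-like clusters in color. The periderm-like cluster 49 stands at the top for pmm2, gmppb, uap1 and gfpt1, hatching gland-like and notochord-like clusters lead dpm1, gmppab and mpi, and gmppaa varies little.

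Over 52 clusters of the control libraries, the highest levels of pmm2 lay outside both classes. Cluster 49 carried the periderm keratin krt5 and anxa1c. Its cells held a median of 1986 UMIs, far below the 19792.5 typical of the libraries they came from. Cluster 49 had 408.5 ± 239 CPM of pmm2 (mean ± SD, 4 libraries), against 271 ± 92.0 in hatching gland-like cells and 256 ± 111 in notochord-like cluster 23. These 3 clusters did not differ beyond the spread of their libraries. The same periderm-like cluster ranked first for gmppb (264 ± 46.6 CPM, next 132 ± 21.9 in hatching gland-like cells), for uap1 (151 ± 36.8 CPM, next 70.9 ± 10.96 in cluster 23) and for gfpt1 (60.6 ± 34.1 CPM, next 21.3 ± 14.1 in cluster 23). Here the libraries of cluster 49 lay above those of the next cluster for gmppb (lowest 215 against highest 151 CPM) and for uap1 (105 against 83.6 CPM). The share of all genes whose leading cluster separates from the next in this way was not counted.

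The remaining genes had other leading clusters. For dpm1, hatching gland-like cells (184 ± 52.4 CPM) and cluster 23 (179 ± 53.4 CPM) overlapped at the top. Cluster 23 also led gmppab (65.7 ± 17.3 CPM) and mpi (12.0 ± 8.4 CPM), both overlapping with the clusters next in order. The primordial germ cell-like cluster led uap1l1 (16.9 ± 11.9 CPM) and gmppaa (25.05 ± 21.5 CPM), in both cases with libraries that overlapped those of other clusters.

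Correlations were taken over the 52 clusters, which share libraries and depth, and carry no test. Among genes outside the 9, pmm2 was most like tmod2 (r = 0.883) and ost4 (r = 0.876), the latter a subunit of the oligosaccharyltransferase. Among the 9 genes it tracked uap1 (r = 0.907) and gmppb (r = 0.878) more closely than gmppaa (r = 0.319). Again outside the 9, the genes most like the others were arf2a for gmppab (r = 0.909) and mpi (r = 0.852), rab1ba for gmppb (r = 0.890), tmed3 for uap1 (r = 0.898) and ckap4 for gfpt1 (r = 0.865). For dpm1 it was dhdds (r = 0.861), for uap1l1 mylk5 (r = 0.754) and for gmppaa aifm1 (r = 0.687).

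Loss of xbp1 lowered 5 of the 9 genes in hatching gland-like cells, pmm2, gmppab, gmppb, dpm1 and uap1, and none rose. Of all 8628 genes tested, 7.30% were called lower. The fit spanned 16 libraries, with terms for the loss of each factor and for the library set. The median log2 change was -1.65 over the 9 genes and 0.01 over all genes. All 5 calls held when each of the 16 libraries was left out in turn.

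The values of pmm2 without xbp1 were 133 CPM in the xbp1 crispant, 58.4 in the xbp1 with atf6 crispant, 52.9 in the xbp1 with creb3l2 embryos, and 47.6 and 49.5 in the quadruple libraries. With xbp1 the lowest, median and highest of 11 libraries were 137, 206 and 393 CPM. The groups did not overlap, though how many of all genes lack an overlap was not counted. The xbp1 crispant lay just below the lowest intact library. That library also kept the most xbp1 mRNA of the 5, at 4335 CPM against 1526 to 2613 CPM in the others and 4532 to 5665 CPM with xbp1 intact. The part of the remaining mRNA in the pmm2 level was not tested. The log2 change of pmm2 was -1.71 ± 0.22 (adjusted p = 1.6e-05), a 3.28-fold lower level.

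The mRNAs of gmppab and gmppb, genes of the GDP-mannose step, were lower as well. In the same order of libraries, gmppab, the regulatory partner, stood at 13.4, 6.0, 9.3, 7.2 and 7.9 CPM without xbp1, and at 32.2, 54.1 and 82.6 CPM (lowest, median, highest) with it. For gmppb, the catalytic enzyme, the values were 59.3, 36.8, 26.9, 26.0 and 42.2 CPM against 92.1, 122 and 171 CPM. Neither gene had an overlap between groups, a trait again not counted over all genes. The log2 changes were -2.80 ± 0.23 for gmppab (adjusted p = 1.9e-07) and -1.69 ± 0.16 for gmppb (adjusted p = 5.4e-07). By contrast gmppaa stood at 11.8 to 18.7 CPM without xbp1 and 7.4 to 19.3 CPM with it, with a log2 value of 0.27 ± 0.28 (adjusted p = 0.65).

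Also lower were uap1, at the end of the hexosamine branch, and dpm1, which uses GDP-mannose. For uap1 the values without xbp1 were 10.1, 4.8, 7.9, 9.0 and 9.0 CPM, against 24.6, 38.2 and 63.2 CPM with it. For dpm1 they were 89.7, 80.1, 69.6, 53.8 and 71.5 CPM, against 103, 179 and 256 CPM. In each case every library without xbp1 lay below every library with it. How many of all genes separate in this way, for this or another loss, was not counted. The log2 changes were -2.41 ± 0.27 for uap1 (adjusted p = 3.9e-06) and -1.28 ± 0.17 for dpm1 (adjusted p = 2.2e-05).

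The 3 remaining genes did not pass the test in hatching gland-like cells, where each library held few of their molecules. There were 0 to 57 UMIs of gfpt1 per library, 2 to 16 of mpi and 2 to 23 of uap1l1. The log2 values were -1.65 ± 0.58 for gfpt1 (adjusted p = 0.091), -0.67 ± 0.43 for mpi (adjusted p = 0.41) and -0.45 ± 0.43 for uap1l1 (adjusted p = 0.6). In quadruple 1 gfpt1 had 0 UMIs, which allows up to 2.69 CPM (3 UMIs), counting error only. With every gene of at least 1 UMI kept, gfpt1 passed as well (adjusted p = 0.04).

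In notochord-like cells, loss of xbp1 called none of the 9 genes, against 0.207% of 9162 genes in either direction. The 2 libraries that lacked xbp1 but kept creb3l2, both of set A, held 175 and 271 CPM of pmm2. The libraries that kept both factors ran from 82.6 CPM in creb3l1 mutant 2 (set B) to 315 CPM in tyr 1 (set A). The log2 value of pmm2 was -0.56 ± 0.22 (adjusted p = 0.53). That of gmppab was -0.91 ± 0.24 (adjusted p = 0.22), which DESeq2 called (adjusted p = 0.045). The median over the 9 genes was -0.43, against -0.02 over all genes. In the remaining cells of the embryo no member was called either, with 0.0113% of all genes called, and pmm2 stood at -0.11 ± 0.17.

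**Figure D2:**
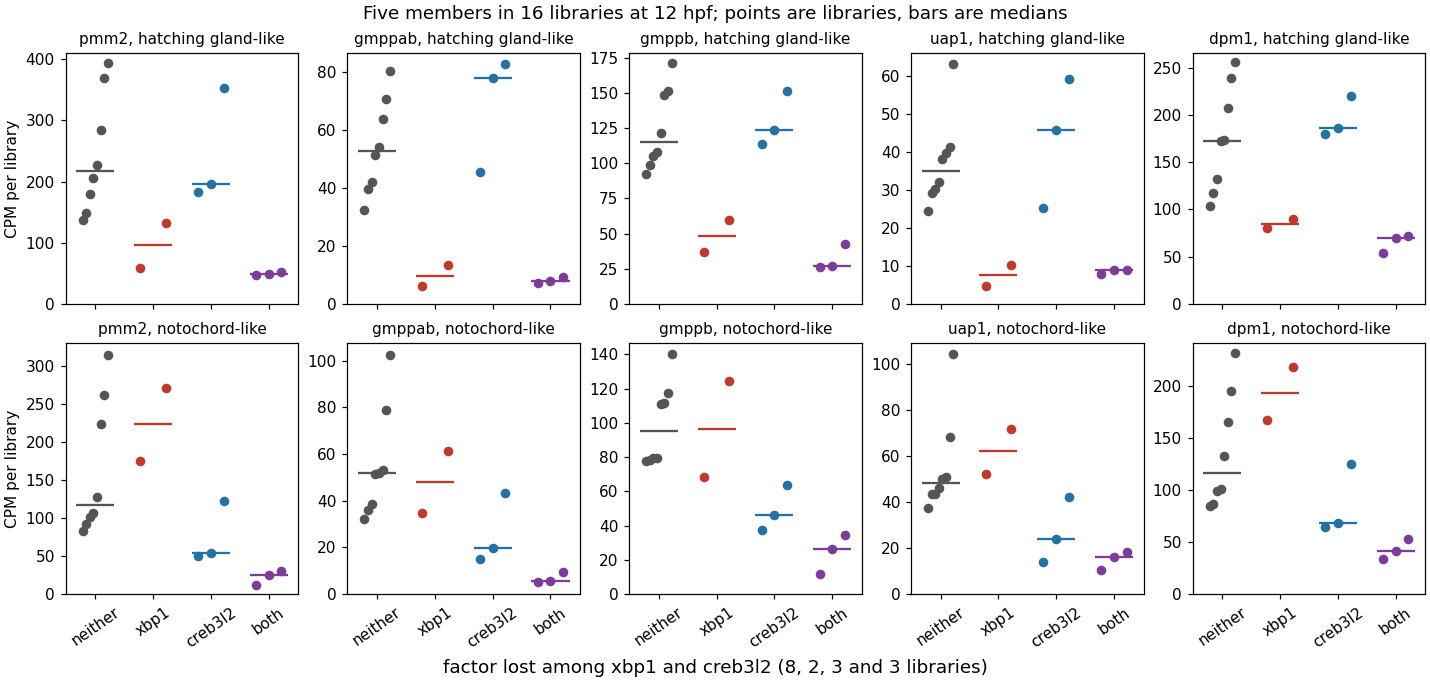
CPM per library of pmm2, gmppab, gmppb, uap1 and dpm1 at 12 hpf, in hatching gland-like cells (top) and notochord-like cells (bottom), by whether xbp1, creb3l2, both or neither was lost; points are libraries and bars medians. In the top row both columns without xbp1 lie below the others, and in the bottom row both columns without creb3l2 do for gmppb, whose values do not overlap.

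Loss of creb3l2 lowered the same 5 genes in notochord-like cells, where 2.22% of all 9162 genes were called lower, and none rose. The median log2 change of the 9 genes was -1.17, against 0.03 over all genes. Each of the 5 calls held when any 1 of the 16 libraries was left out. When the library set was left out of the model, gmppb and uap1 were still called but pmm2 (adjusted p = 0.073), gmppab (adjusted p = 0.067) and dpm1 (adjusted p = 0.21) were not. In set B xbp1 and creb3l2 were lost in the same 3 libraries, so telling the 2 losses apart rests on set A, with 2 libraries without xbp1 and 3 others without creb3l2.

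For pmm2 the lowest, median and highest of the 6 libraries without creb3l2 were 12.0, 40.5 and 122 CPM, and of the 10 libraries with it 82.6, 151 and 315 CPM. The only overlap came from the creb3l2 crispant, at 122 CPM. This crispant was the only library that lacked creb3l2 and no other factor, and it was the highest of the 6 for each of the 5 genes. All others of the 6 also lacked creb3l1. The model had no term for joint loss of creb3l1 and creb3l2, so an effect of losing both together was not tested. The log2 change of pmm2 was -1.36 ± 0.23 (adjusted p = 0.0015), a 2.57-fold lower level.

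For gmppb the values were 11.5, 36.0 and 63.7 CPM without creb3l2 and 68.2, 95.6 and 140 CPM with it, with no overlap. The share of all genes without an overlap was not counted for this loss either. For gmppab they were 5.1, 12.3 and 43.3 CPM against 32.0, 51.8 and 102.5 CPM, the creb3l2 crispant again being the overlap. The log2 changes were -1.31 ± 0.21 for gmppb (adjusted p = 0.0013) and -1.39 ± 0.23 for gmppab (adjusted p = 0.0015).

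For uap1 the lowest, median and highest were 10.5, 17.1 and 42.0 CPM without creb3l2 and 37.6, 50.6 and 104 CPM with it, and for dpm1 34.1, 58.8 and 125 CPM against 84.7, 149 and 231 CPM. In both cases the creb3l2 crispant was the only library inside the intact range. The log2 changes were -1.25 ± 0.19 for uap1 (adjusted p = 0.00068) and -0.91 ± 0.16 for dpm1 (adjusted p = 0.0023).

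The 4 remaining genes did not pass the test. The log2 values were -1.17 ± 0.52 for gfpt1 (adjusted p = 0.41), -0.43 ± 0.28 for gmppaa, 0.12 ± 0.38 for mpi and 0.30 ± 0.35 for uap1l1. Cluster 23 held 35.6% to 49.6% of the class without creb3l2 and 26.7% to 63.8% with it, ranges that overlapped. Whether the mix of the 2 notochord-like clusters, or of cells within them, had a part in the lower levels of the called genes was not tested. In cluster 23 alone pmm2 stood at a median of 42.2 CPM without creb3l2 and 218 CPM with it, and in cluster 22 at 30.7 and 96.7 CPM.

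In hatching gland-like cells loss of creb3l2 called none of the 9 genes, nor any other gene (0% of 8628, 362 of them at an unadjusted p below 0.05). The log2 values there were 0.10 ± 0.22 for pmm2, 0.34 ± 0.21 for gmppab, 0.05 ± 0.16 for gmppb, 0.20 ± 0.24 for uap1 and 0.17 ± 0.17 for dpm1. The other 4 ran from -1.05 ± 0.45 for mpi to 0.71 ± 0.50 for gfpt1. In the remaining cells no member was called, with 0.0227% of all genes called.

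Whether each loss acted by a different amount in the 2 tissues was tested directly, in 1 fit over the paired class sums of the 16 libraries. For xbp1 the same 5 genes fell more in hatching gland-like than in notochord-like cells, against 3.30% of 10144 genes called in that direction. The log2 differences were -2.03 ± 0.25 for uap1 (adjusted p = 2.9e-05), -1.90 ± 0.34 for gmppab (0.0011), -1.19 ± 0.26 for pmm2 (0.007), -1.10 ± 0.17 for dpm1 (0.00022) and -1.07 ± 0.24 for gmppb (0.0086). Without the xbp1 with atf6 library, pmm2 (-0.82, adjusted p = 0.061) and gmppb (-0.79, adjusted p = 0.09) were no longer called.

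For creb3l2 the difference had the other sign in the same 5 genes, meaning a larger drop in notochord-like cells, against 1.75% of all genes called in that direction. The log2 differences were 1.74 ± 0.30 for gmppab (adjusted p = 0.0021), 1.497 ± 0.26 for pmm2 (0.002), 1.45 ± 0.23 for uap1 (0.0011), 1.36 ± 0.23 for gmppb (0.0017) and 1.09 ± 0.17 for dpm1 (0.00089). All 5 held without any 1 library. For gfpt1 the difference was 1.91 ± 0.50 and missed the threshold (adjusted p = 0.054). It passed with doublets kept (2.18, adjusted p = 0.021) and with a minimum of 2000 UMIs per barcode (2.02, adjusted p = 0.04). It also passed without quadruple 1 (1.98). The tests for creb3l1 (0.0493% of genes called) and atf6 (0%, with 482 genes at an unadjusted p below 0.05) called no member.

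**Figure D3:**
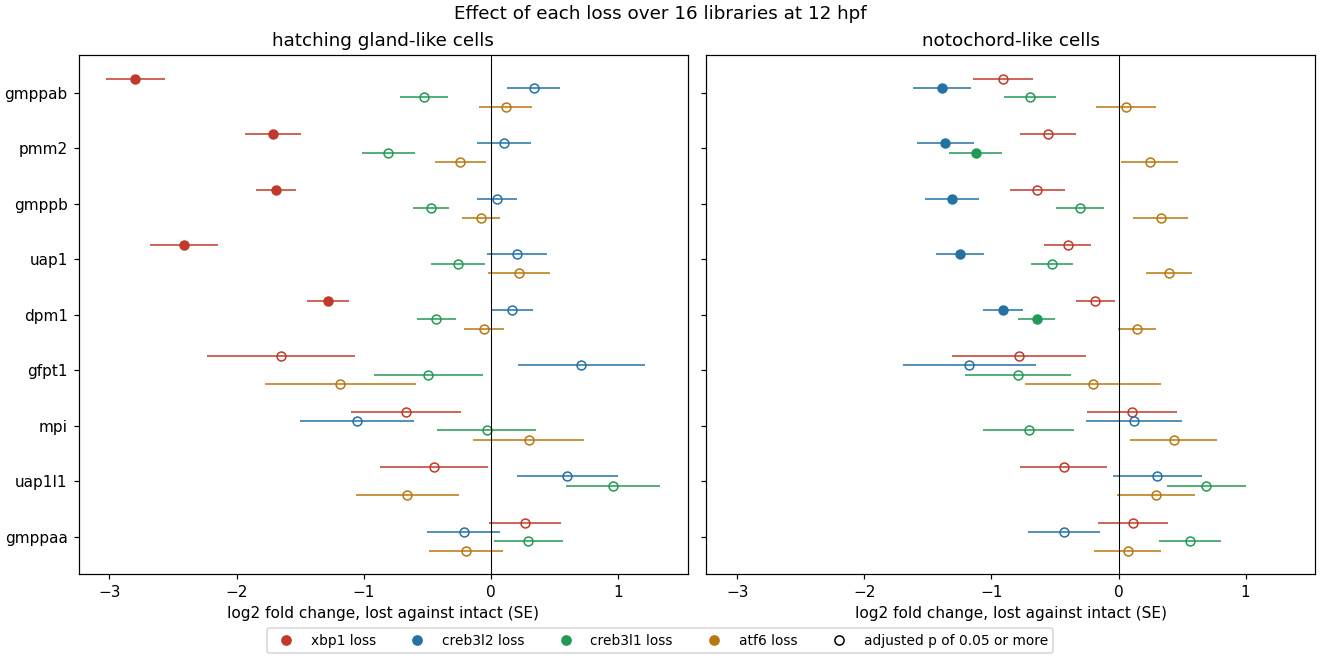
Log2 fold change of each gene, lost against intact, with its SE, for loss of xbp1, creb3l2, creb3l1 and atf6 over 16 libraries at 12 hpf, in hatching gland-like cells (left) and notochord-like cells (right); filled points had an adjusted p below 0.05. Filled points for xbp1 stand only in the left panel and filled points for creb3l2 only in the right one, for the same 5 genes.

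Loss of creb3l1 lowered 2 of the 9 genes in notochord-like cells, where 0.971% of all genes were called lower. There pmm2 changed by -1.12 ± 0.21 (adjusted p = 0.015), a 2.18-fold lower level, and dpm1 by -0.64 ± 0.14 (adjusted p = 0.041). In the 3 libraries that lacked creb3l1 but kept the other factors, the 2 of the mutant line and the creb3l1 crispant, pmm2 stood at 101, 82.6 and 92.0 CPM. The wild type libraries stood at 127 and 107 CPM and the tyr libraries at 315 and 223 CPM, all above those 3. How many of all genes separate in this way was not counted. The uninjected libraries, mutant and wild type, lay closer together than the injected ones, the creb3l1 crispant and tyr. Mutant 1 belongs to set A and both wild type libraries to set B. The call of pmm2 was lost without creb3l1 mutant 1 (adjusted p = 0.076) or the creb3l2 crispant (adjusted p = 0.15). The call of dpm1 held in 8 of 16 such fits. It was lost without xbp1, xbp1 with atf6, creb3l2, creb3l2 with creb3l1, atf6 with creb3l2 and creb3l1, tyr 2 or either creb3l1 mutant library, with an adjusted p of up to 0.27. It was also lost with a term for injection (adjusted p = 0.082) or without the set term (adjusted p = 0.083).

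In the remaining cells loss of creb3l1 lowered pmm2 (-0.75 ± 0.17, adjusted p = 0.033) and gmppab (-0.58 ± 0.14, adjusted p = 0.043), against 1.38% of all genes. These calls held in 8 and 3 of 16 fits that each left out 1 library, and the largest adjusted p among the others was 0.19 for pmm2 (without creb3l1 mutant 1) and 0.23 for gmppab (without the creb3l2 crispant). With a term for injection gmppab was not called (adjusted p = 0.074), nor without the set term or with library totals (adjusted p = 0.052 in both). In hatching gland-like cells no member was called (1.14% of all genes in either direction), and pmm2 stood at -0.81 ± 0.21 (adjusted p = 0.067). DESeq2 called it (adjusted p = 0.015). The other 8 genes ran from -0.52 ± 0.19 for gmppab to 0.96 ± 0.37 for uap1l1 there. The creb3l1 mRNA level gives no check of these labels, since it was not lower in all libraries without creb3l1.

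Loss of atf6 called none of the 9 genes in hatching gland-like, notochord-like or remaining cells, where 0.0116%, 0.0109% and 0.00567% of genes were called. That is 1 gene in each case, with 359, 297 and 482 genes at an unadjusted p below 0.05. The log2 value of pmm2 was -0.24 ± 0.20, 0.25 ± 0.22 and 0.07 ± 0.17 in the 3 classes, and that of gmppb was -0.08 ± 0.15, 0.33 ± 0.21 and 0.23 ± 0.11. The other 7 genes ran from -1.18 ± 0.59 for gfpt1 to 0.30 ± 0.44 for mpi in hatching gland-like cells. In notochord-like cells they ran from -0.20 ± 0.54 for gfpt1 to 0.43 ± 0.34 for mpi, and in the remaining cells from 0.03 ± 0.12 for gmppaa to 0.28 ± 0.12 for uap1.

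Since periderm-like cluster 49 held the highest levels of several of the genes, the same model was run on periderm-like cells after the data had been seen. That class pools cluster 49 with periderm-like cluster 50, which did not rank first for these genes. No loss called any of the 7 genes that could be tested there (mpi and uap1l1 were too low). Of 5540 genes, loss of xbp1 called 0.0542%, atf6 0.0722%, creb3l1 0.0361% and creb3l2 0.433%. The estimate for pmm2 was -0.31 ± 0.32 for xbp1, -0.37 ± 0.31 for creb3l2 and -0.90 ± 0.30 (adjusted p = 0.31) for creb3l1, and that for uap1 was 0.05 ± 0.41 for xbp1. The class held 15 to 247 cells per library, so its errors are wider than those of the other classes.

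A term for joint loss of xbp1 and creb3l2, also added after the data had been seen, called no member and no other gene in hatching gland-like cells (0%) or in notochord-like cells (0%). At an unadjusted p below 0.05 it passed 238 and 249 genes. For pmm2 it was 0.33 ± 0.58 and -0.59 ± 0.58. With both lost, the notochord-like level of pmm2 was 12.0, 24.8 and 30.5 CPM in 3 libraries, below the 50.5, 54.5 and 122 CPM of the 3 libraries that lost creb3l2 and kept xbp1. All 3 libraries without both also lacked creb3l1, as did the 2 lower ones of the other 3. Those without both were all of set B and the other 3 all of set A, so the set cannot be told apart from this difference. No library of set A lacked both factors, and none of set B lacked just xbp1 or just creb3l2. The joint term therefore also rests on a comparison between sets.

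In quadruple embryos 5 of 7 tested genes were called lower than in tyr crispants in hatching gland-like cells and 5 of 9 in notochord-like cells. Of all genes, 3.81% and 2.50% were called lower. That fit has no term for the library set. Of the libraries compared, tyr 1 belongs to set A, and tyr 2 and both quadruple libraries to set B, so part of a difference between sets cannot be told apart from the genotype. The 5 genes were again pmm2, gmppab, gmppb, uap1 and dpm1. In hatching gland-like cells pmm2 stood at 47.6 and 49.5 CPM against 393 and 284 CPM in tyr, and in notochord-like cells at 24.8 and 30.5 CPM against 315 and 223 CPM. The groups were far apart in both classes, with log2 changes of -3.07 ± 0.34 (adjusted p = 0.00066, 8.39-fold lower) and -3.48 ± 0.36 (adjusted p = 0.0014, 11.1-fold lower).

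For gmppab the quadruple libraries held 7.2 and 7.9 CPM in hatching gland-like cells against 70.6 and 63.7 CPM in tyr, and 9.7 and 5.1 CPM in notochord-like cells against 102.5 and 51.7 CPM. The log2 changes were -3.39 ± 0.37 (adjusted p = 0.00066) and -3.49 ± 0.52 (adjusted p = 0.0049). In hatching gland-like and notochord-like cells they were -2.37 ± 0.34 and -2.23 ± 0.36 for gmppb, -2.22 ± 0.37 and -1.96 ± 0.36 for uap1, and -2.09 ± 0.39 and -2.12 ± 0.36 for dpm1. For gfpt1 they were -2.81 ± 1.00 (adjusted p = 0.18) and -2.93 ± 0.78 (adjusted p = 0.079), and gmppaa stood at -0.14 ± 0.54 and 0.32 ± 0.46. The value of gfpt1 ran from -7.18 to -0.70 and from -3.51 to -0.59 when single libraries were omitted. In notochord-like cells gfpt1 was called without tyr 1 (adjusted p = 0.027), wild type 1 (0.037) or wild type 2 (0.036), and with every gene of at least 1 UMI kept it was called in both classes (0.018 and 0.00028). In notochord-like cells mpi stood at -0.34 ± 0.65 and uap1l1 at 0.65 ± 0.58, and both were too low to be tested in hatching gland-like cells.

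With 2 libraries a group, most of these calls depended on single libraries. The call of pmm2 survived each of 8 fits with 1 library omitted, in both classes, and that of gmppab did so in hatching gland-like cells. In notochord-like cells gmppab was lost without quadruple 1 (adjusted p = 0.052) or quadruple 2 (0.084). For gmppb it was lost without quadruple 1 in hatching gland-like cells (0.057) and without quadruple 1 or 2 in notochord-like cells (0.14 and 0.087).

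For uap1 the call was lost without quadruple 1 or 2 in hatching gland-like cells (adjusted p = 0.083 and 0.098), and without tyr 1 or either quadruple library in notochord-like cells (0.082, 0.14 and 0.18). For dpm1 it was lost without tyr 1 or either quadruple library in both classes (adjusted p of 0.054 to 0.15). In the remaining cells the quadruple embryos called no member (0.337% of all genes), with gmppab at -1.63 ± 0.33 (adjusted p = 0.084) and pmm2 at -1.29 ± 0.30 (adjusted p = 0.15). DESeq2 called both (adjusted p = 0.00068 and 0.0083).

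The tyr and wild type controls were also set against each other, a comparison added after the data had been seen and one that shares the tyr libraries with the quadruple comparison. No member was called in hatching gland-like (0%, with 161 genes at an unadjusted p below 0.05), notochord-like (0%, 310 genes) or remaining cells (0.0929%). The estimates for pmm2 were -0.79 ± 0.31, -1.20 ± 0.33 and -0.69 ± 0.30. With injection as a term of the 16-library model, loss of xbp1 still called 5 members in hatching gland-like cells and loss of creb3l2 still called 5 in notochord-like cells. The wild type libraries belong to set B, so the set is in part confounded with this comparison as well.

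Neighbouring steps were read from a list of 67 further genes of hexosamine, UDP-sugar, GDP-fucose, sialic acid and dolichol metabolism, lipid-linked oligosaccharide assembly and sugar nucleotide transport. In hatching gland-like cells, 17 of 44 tested list genes fell and 1 rose with loss of xbp1, with a median log2 change of -0.45 (7.30% of all genes fell and 155 of 8628 rose, median 0.01). They included slc35b1, an ATP carrier of the endoplasmic reticulum in human cells (-2.63 ± 0.24), ugp2b, which makes UDP-glucose (-2.71 ± 0.27), and alg2, a mannosyltransferase of the lipid-linked chain (-2.06 ± 0.21). In notochord-like cells loss of xbp1 called 0 of 41 list genes (0.207% of all genes). There loss of creb3l2 lowered 8 of 41, with a median of -0.18 (2.22% of all genes, median 0.03), including the UDP-sugar enzymes ugdh (-1.34 ± 0.16) and gale (-1.93 ± 0.28) and the hexosamine mutase pgm3 (-1.37 ± 0.21). In hatching gland-like cells loss of creb3l2 called 0 of 44.

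The list differed between tissues in the same direct test. Of 46 genes, against 3.30% and 1.75% of all genes, 10 fell more in hatching gland-like cells with loss of xbp1, among them alg2 (-1.72 ± 0.22), and 7 fell more in notochord-like cells with loss of creb3l2, among them gale (2.00 ± 0.31) and the mannosyltransferase alg11 (1.61 ± 0.29). Loss of creb3l1 lowered mpdu1b, which is needed to use dolichol-linked mannose, in notochord-like cells (-1.56 ± 0.34, adjusted p = 0.033). It did so in the remaining cells too (-1.04 ± 0.20, adjusted p = 0.017). In each class mpdu1b was the only list gene called, against 0.971% and 1.38% of all genes called lower. A lone call does not set the list apart from all genes. The quadruple embryos had 9 of 43 list genes lower in hatching gland-like cells, including ugp2b (-3.40 ± 0.50), and 5 of 40 lower in notochord-like cells, including gale (-3.18 ± 0.54), against 3.81% and 2.50% of all genes. In controls, 34 of 51 list genes were higher and 4 lower in hatching gland-like than in remaining cells, and 31 were higher and 1 lower in notochord-like cells, where 29.0% and 25.2% of all genes were called higher. Of all 11262 genes tested, 3811 and 3139 were called lower, in the same order. Set against each other, hatching gland-like cells were higher in slc35b1 (2.29 ± 0.13) and dhdds (1.42 ± 0.11), a subunit of the enzyme that makes the dolichol precursor. Notochord-like cells were higher in pgm3 (-3.49 ± 0.19). Between these 2 classes 54.9% of all genes were called in either direction.

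At 8 hpf the activated factors were added to embryos that lacked xbp1, and with each of the 3 factors 7 of the 9 genes were at least 2-fold higher than with mCherry in the sum of all cells. Each group had 1 library and the 3 share the mCherry library, so there is no replicate check, and the intervals given are 95% Poisson intervals of the counting error. Of all genes that averaged at least 5 CPM over the pair of libraries, 7.93% were 2-fold higher with atf6-N, 10.2% with creb3l1-N and 11.6% with creb3l2-N. Of the members that met that minimum, 6 of 7, 6 of 6 and 6 of 6 were. Of these, 3, 2 and 2 stood under 5 CPM with mCherry and met the minimum through their high side.

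Both creb3l factors gave large ratios for pmm2 and gmppab. The level of pmm2 was 5.98 CPM with mCherry, 21.1 with atf6-N, 219 with creb3l1-N and 215 with creb3l2-N. Its ratio to mCherry was 3.52 (3.13 to 3.97) with atf6-N, 36.6 (32.9 to 40.8) with creb3l1-N and 36.0 (32.4 to 40.1) with creb3l2-N. For gmppab the levels were 1.23, 8.91, 47.1 and 51.1 CPM and the ratios 7.25 (5.67 to 9.39), 38.3 (30.3 to 49.04) and 41.6 (32.95 to 53.2). In both genes the counting intervals of the 2 creb3l factors overlapped each other and lay above that of atf6-N.

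The catalytic enzyme gmppb had the reverse order. It stood at 7.17 CPM with mCherry, 58.3 with atf6-N, 22.3 with creb3l1-N and 37.5 with creb3l2-N, with ratios of 8.12 (7.34 to 9.003), 3.11 (2.79 to 3.47) and 5.22 (4.72 to 5.79). For uap1 the ratios were 2.99 (2.64 to 3.38), 11.6 (10.4 to 12.9) and 14.8 (13.3 to 16.5), from 5.88 CPM with mCherry. For dpm1 they were 1.15 (1.07 to 1.24), 3.91 (3.68 to 4.17) and 5.07 (4.77 to 5.38), from 20.6 CPM. Thus atf6-N gave the highest level of the 3 for gmppb and the lowest for pmm2, gmppab, uap1 and dpm1.

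For gfpt1 the 3 ratios lay close together, at 3.82 (3.22 to 4.54), 3.97 (3.36 to 4.71) and 4.00 (3.40 to 4.74). For mpi they were 3.40 (2.48 to 4.74), 7.04 (5.25 to 9.64) and 5.55 (4.13 to 7.59), on 50 UMIs with mCherry. For gmppaa they were 2.56 (2.17 to 3.03), 1.01 (0.83 to 1.22) and 1.81 (1.54 to 2.15), the only gene of the 9 that passed 2-fold with atf6-N and with neither creb3l factor. For uap1l1 none passed 2-fold, at 0.94 (0.72 to 1.23), 0.88 (0.67 to 1.15) and 1.72 (1.37 to 2.17).

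**Figure D4:**
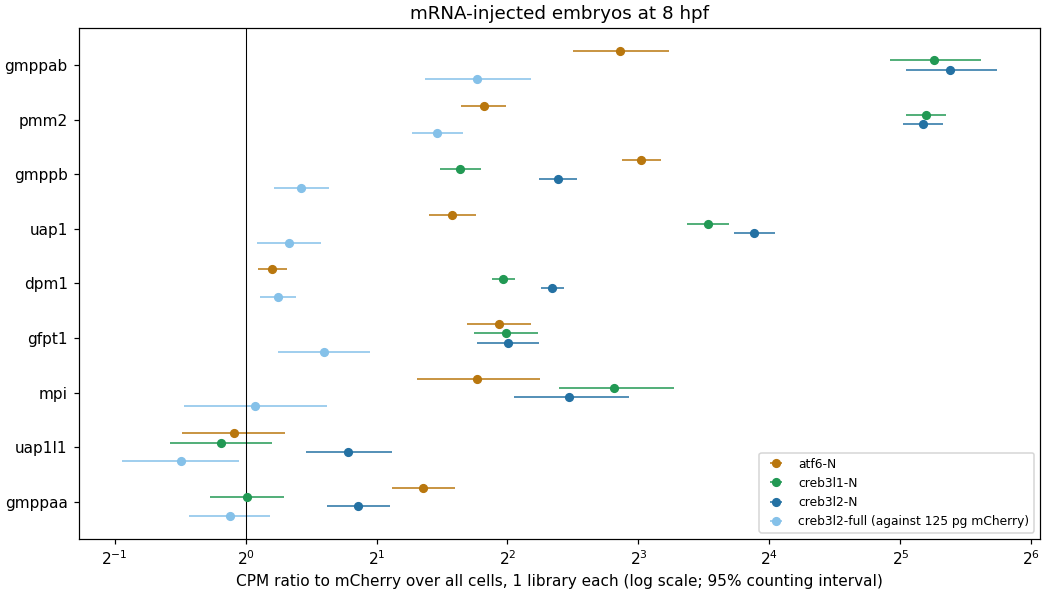
Ratio of CPM to the matching mCherry library for each gene over all cells at 8 hpf, on a log axis, with 95% counting intervals and 1 library per group. The creb3l1-N and creb3l2-N points lie near 36-fold for pmm2 and near 40-fold for gmppab, while atf6-N is the highest point for gmppb and gmppaa.

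Full-length creb3l2 at 40 pg, set beside mCherry at 125 pg in embryos with xbp1, gave smaller values, and its dose of control mRNA differed. It was at least 2-fold higher in 2 of the 9 genes, and in 1 of the 4 that met the minimum, against 1.13% of all genes. For pmm2 the levels were 20.7 and 7.51 CPM and the ratio 2.76 (2.41 to 3.16), and for gmppab 5.95 and 1.75 CPM and 3.40 (2.59 to 4.52). For gmppb the ratio was 1.34 (1.17 to 1.55), for uap1 1.26 (1.06 to 1.49) and for dpm1 1.19 (1.08 to 1.31).

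By class at 8 hpf, notochord-like cells held 5.4 CPM of pmm2 with mCherry, 17.3 with atf6-N, 328 with creb3l1-N and 299 with creb3l2-N. In a prechordal plate-like cluster (with gsc, frzb, ctslb and klf17 among its leading genes, 17 to 55 cells per library) it stood at 2.9 (3 UMIs), 11.2 (9 UMIs), 115 and 323 CPM in the same order. The atf6-N ratio there was 3.89, with a counting interval of 0.97 to 22.3 that includes no change. In periderm-like cells, where mCherry embryos already held 69.0 CPM of pmm2, it stood at 122, 339 and 250 CPM, and uap1 at 79.5 CPM with mCherry and 135, 142 and 178 CPM. Of the notochord-like cells of the atf6-N library, 87.7% fell in a cluster found only in that library. A further cluster that drew 97.2% of its cells from the creb3l1-N library, and another that drew 73.2% from the creb3l2-N library, had pmm2 among their leading genes.

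Among the list genes counted, 9 of 33 were at least 2-fold higher with atf6-N, 18 of 35 with creb3l1-N, 19 of 35 with creb3l2-N (1 was lower) and 1 of 29 with full-length creb3l2. Of all genes counted, 7.93%, 10.2%, 11.6% and 1.13% were, in the same order. The list genes named next had the largest changes in log2(CPM + 1), and the folds printed are plain CPM ratios. With atf6-N these 3 were the phosphoglucomutase pgm1 (20.2-fold), the mannosyltransferase alg12 (18.2-fold) and nus1 (7.95-fold), the partner of dhdds. With creb3l1-N they were pgm3 (40.6-fold), the hexosamine acetyltransferase gnpnat1 (20.8-fold) and alg2 (11.6-fold). With creb3l2-N they were pgm3 (42.4-fold), gnpnat1 (19.0-fold) and ugp2b (18.6-fold). With 40 pg of mCherry, pgm1 (2.17 CPM), alg12 (2.73), pgm3 (2.34), gnpnat1 (1.57) and ugp2b (2.84) stood under 5 CPM. These genes met the minimum through their high side, while nus1 (15.6 CPM) and alg2 (7.60) did not depend on it. The steps gnpnat1 and pgm3 lie between gfpt1 and uap1 in the hexosamine branch.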

How the data were processed

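The authors deposited unnormalized UMI counts, 1 matrix of genes by barcodes per library, made with Cell Ranger 3.1.0 (8 libraries) or 6.1.2 (14), per the file headers; the genome build is not given in the sources used here. Of 30 libraries 22 were analysed and 8 were not analysed here. The 9 genes and all lists were chosen with earlier results of these data known. Barcodes with under 1000 UMIs or over 10% mitochondrial UMIs were dropped, as were the highest doublet scores (0.8% per 1000 barcodes), which left 62153 cells (12 hpf) and 18831 (8 hpf). Clusters were built for each stage in scanpy 1.11.5 (2000 variable genes, 40 components, 15 neighbours, Leiden resolution 2, centred within library sets A and B, 8 libraries each, a letter in the file names that goes with the Cell Ranger version). The members, pathway list, targeted and secretory genes were left out. Classes were named from marker lists. Counts were summed per class and library and fitted in edgeR 4.0.16 (TMM, filterByExpr, quasi-likelihood, two-sided, Benjamini-Hochberg over all genes tested, called below 0.05), with additive terms for each loss and the set on 10 residual degrees of freedom. The quadruple fit used the 8 libraries of the groups with 2 libraries, on 4, without a set term (tyr 1 in set A, both quadruple and both wild type libraries in set B). DESeq2 1.42.0, other scalings and filters and left-out libraries were tried as alternatives. The fits were tested on simulated data. The rule names all 9 members in each comparison, with up to 3 called list genes; where few or none were called, the text gives some members and the range of the others or the count. Injection was not a term: 4 of the libraries with xbp1, atf6 and creb3l2 were uninjected. The replicate numbers of tyr and quadruple did not deviate together (correlations of -0.0618 in hatching gland-like and 0.0135 in notochord-like cells). Those of tyr and wild type did (0.363 and 0.298), but 2 pairs are too few to pair by data, so no block was used.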

Additional observations from a re-analysis of the deposited data

Results flagged for a closer look

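Effects of 2 losses differed between hatching gland-like and notochord-like cells by a direct test over 16 libraries (edgeR, adjusted over all genes). For loss of xbp1 the log2 difference was -1.099 for dpm1, -1.896 for gmppab, -1.066 for gmppb, -1.19 for pmm2 and -2.025 for uap1. For loss of creb3l2 it was 1.094 for dpm1, 1.738 for gmppab, 1.36 for gmppb, 1.497 for pmm2 and 1.453 for uap1. The 2 losses separate only in set A, since in set B they fall in the same 3 libraries. No group has 4 or more libraries, so single libraries were not screened as outliers.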

How the results depend on the processing

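No called member changed sign under any alternative run. In the fits that left out 1 library, 3418 member values, each for 1 gene in 1 comparison and fit, kept their side of the threshold. Of these, 184 that were not called changed sign. A further 55 values lost and 11 gained a call. Under other settings the numbers were 1528, 43, 14 and 19. Over the left-out libraries, members called stayed at 5 for xbp1 in hatching gland-like and for creb3l2 in notochord-like cells, and ranged from 0 to 1 for creb3l1 in hatching gland-like, 0 to 2 in notochord-like and 0 to 4 in remaining cells, from 3 to 5 between the 2 classes in controls, from 2 to 5, 1 to 6 and 0 to 1 for quadruple against tyr in hatching gland-like, notochord-like and remaining cells, and from 3 to 5 for the xbp1 difference between classes. The lone library of a group then left is assumed to vary like the others. For creb3l1, DESeq2 and the fit without a filter each called 1 member in hatching gland-like cells (0 in the report). In periderm-like cells 1 was called without the filter (0). In remaining cells DESeq2 called 3 (2), with mpi added, and in notochord-like cells the fit without a filter added gmppab. Without the set or with an injection term 1 member was called in notochord-like and 1 in remaining cells (2), as with library totals in remaining cells (1). For creb3l2 in notochord-like cells 2 members were called without the set (5). The creb3l2 difference between classes gained gfpt1 with doublets kept or with a minimum of 2000 UMIs. DESeq2 and the fit without a filter each called 1 member for xbp1 in notochord-like cells (0), 2 for quadruple in remaining cells (0) and 3 between classes in controls (5). The causes were not tested. With the replicate number as a block, quadruple against tyr called 5, 5 and 0 members, the same as without it, and wild type against tyr 0, 0 and 0. All genes called for xbp1 in notochord-like cells numbered 19, but 49 with DESeq2, 252 unfiltered and 12 without the set. For quadruple in remaining cells they numbered 58, but 394 with DESeq2 and 409 unfiltered. Library totals moved the median of all genes in quadruple against tyr by 0.25, 0.19 and 0.12 in the 3 classes. Median-ratio scaling divided the 8 hpf ratios by 0.922 to 0.992, which made them slightly larger. Low counts limit gfpt1, mpi and uap1l1 most.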
